A study of Homo sapiens with 8 samples.

Results

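SUDHL6 is an established human lymphoma cell line of the germinal-centre B-cell-like type of diffuse large B-cell lymphoma, known to carry an activating mutation of EZH2. EZH2 is the enzyme of polycomb repressive complex 2 (PRC2) that methylates H3K27. The untreated state of this line is described here from its vehicle libraries, taken by their label: 2 of the 8 RNA sequencing libraries of the series, both from cells grown in RPMI1640 medium with serum and kept with DMSO for 18 h. The other 6 libraries (2 each with the EZH2 degrader MS8815, the enzyme inhibitor EPZ-6438 and the analog MS8815N, which is not a degrader) were not compared with them. All 18398 genes of the table that holds the vehicle libraries beside MS8815N were taken, of 19709 in the 3 tables of the series. The cells are 1 line, the labels speak of duplicates without saying whether they were separate cultures, and no untreated cells without DMSO were analysed here, so the spread given below may be technical.

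Germinal-centre B cells are the stage at which B cells mutate and class-switch their immunoglobulin genes, held there by the repressor BCL6 and by PRC2, and released towards the plasma cell when IRF4 and PRDM1 take over. Lymphomas of this type are known to keep much of that program. PRC2 places the repressive H3K27 methyl mark on chromatin, and PRC1 binds that mark.

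The unit of every level below is the normalised read count of a gene per kilobase of its longest annotated transcript, scaled so that the genes of a library sum to 1000000, and written LPM (length-scaled counts per 1000000). A value written with ± is the mean and SD of the 2 vehicle libraries (n = 2). Ranks run from 1, the highest, over the 15453 genes with a known transcript length. The estimated depth was 3.10e+07 reads in DMSO 1 and 3.17e+07 in DMSO 2. Their normalised counts had a Spearman correlation of 0.984 across genes, which share these libraries and are not independent replicates. No test of one gene against another was made, and an exact permutation test of 2 against 2 values could not go below p = 0.333. The SD covers the spread of the libraries only, and not the choice of transcript length: with the median transcript in place of the longest, 146 of 209 named genes moved by over 1.5-fold.

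At or above 1 LPM in both libraries were 11193 genes, 72.4% of those with a length. At or above 10 LPM were 51.4% and at or above 100 LPM 12.4%. The median level of all genes was 11.7 LPM. The 10 highest genes held 6.78 ± 0.0607% of the summed level and the 100 highest 26.7 ± 0.27%. Protein-coding genes made up 95.4% of it and long non-coding RNA genes 0.565%.

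The highest levels belonged to mitochondrially encoded genes, antibody genes, ribosomal protein genes and a few abundant housekeeping genes. MT-CO3 and MT-CO1, mitochondrially encoded subunits of cytochrome c oxidase, reached 8336 ± 231 and 8167 ± 92.7 LPM, and MT-ATP6, a subunit of the ATP synthase, 4536 ± 47.8 LPM. The 13 mitochondrially encoded protein genes together held 4.38 ± 0.0895% of the summed level. Ribosomal protein genes held 11.3 ± 0.194%, with a median of 1106 LPM. Of these, 82 of 83 were at or above 1 LPM in both libraries, against 72.4% of all genes. RPL41, RPL8 and RPS2 led them at 7529.9, 5741 and 3607 LPM. Of the other protein-coding genes the highest was PTMA, the prothymosin alpha gene, at 6533 ± 168 LPM, followed by GAPDH of glycolysis at 6089 ± 67.1 LPM and the cytoplasmic gamma-actin ACTG1 at 4716 ± 40.1 LPM. The elongation factor EEF1A1, the actin-binding PFN1 and TMSB4X, the ferritin light chain FTL and the tubulins TUBA1B and TUBB were each between 2815 and 4413 LPM. The RNA-binding YBX1 stood at 3659 LPM, the mitochondrial ADP/ATP carrier SLC25A5 at 3015 LPM and the chaperone HSP90AB1 at 2741 LPM. Many of these genes have processed pseudogene copies, between which reads can be split. Histone cluster genes, most of whose mRNAs carry no poly(A) tail, held 0.0357% of the summed level.

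**Figure D1:**
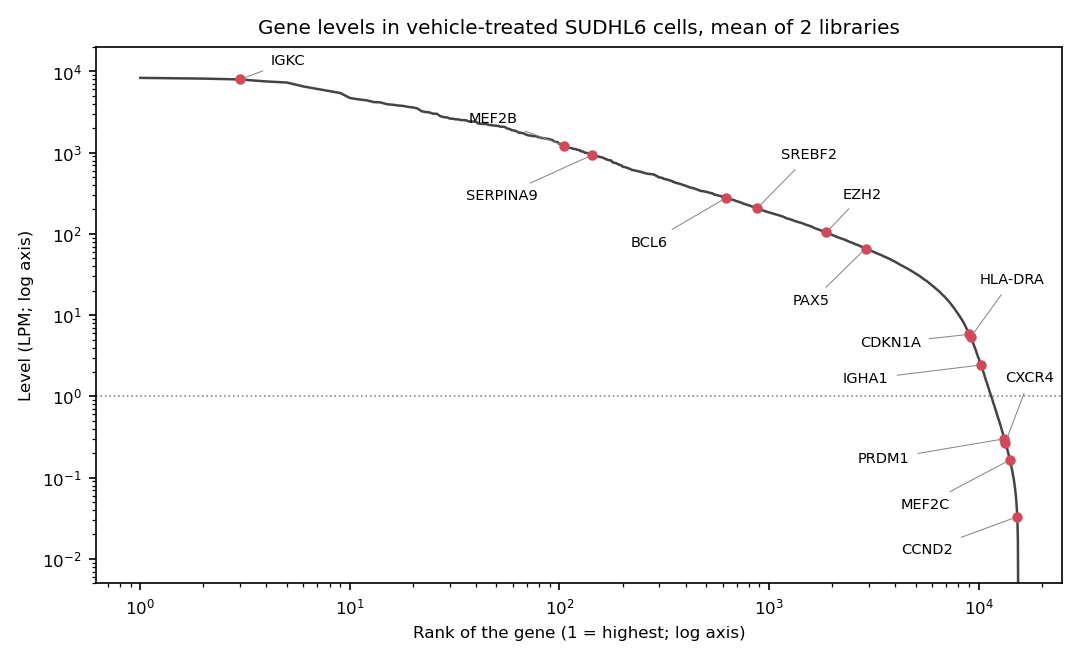
Level of every gene with a level above 0 against its rank, both on log axes, as the mean of the 2 vehicle libraries. The points name genes of the text, and the dotted line marks 1 LPM. IGKC lies at rank 3, EZH2 at rank 1876 and CCND2 at rank 15285.

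Antibody transcripts were among the most abundant of the cell and came from few loci. IGKC, the kappa light-chain constant gene (GRCh38 chromosome 2, 88857161 to 88857683), had 7833 and 8102 LPM in DMSO 1 and DMSO 2 and rank 3. IGHG1, the constant gene of the IgG1 heavy chain (chromosome 14, 105736343 to 105743071), had 3189 and 3139 LPM and rank 23. The other heavy-chain constant genes with a level were far lower, IGHA1 at 2.44 ± 1.0 and IGHG3 at 0.248 ± 0.038 LPM. IGHM, the gene of the IgM heavy chain that naive B cells carry, had no value beside MS8815N, and in the vehicle columns of the MS8815 table its normalised counts were 0.691 and 0. The lambda constant genes IGLC2 and IGLC3 had 77.8 ± 1.8 and 26.4 ± 1.76 LPM, so that kappa exceeded IGLC2 99.1-fold in DMSO 1 and 106-fold in DMSO 2. Immunoglobulin constant and variable genes are polymorphic and near-identical within families, and the mutated V genes of a lymphoma differ from the reference, so their reads may be assigned in error or lost.

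One kappa variable gene dominated. IGKV4-1 (chromosome 2, 88885397 to 88886153) had normalised counts of 15966 and 16106, which were 97.3 and 97.4% of the counts of all 14 IGKV genes with a level. Among the 4 IGHV genes, IGHV3-23 held 96.4 and 97.1%, but with normalised counts of only 551 and 552, against 99056 and 98671 for IGHG1. The 11 IGLV genes had no comparable leader, and IGLV6-57 held 38.7 and 39.5% of a sum of 271 and 250.3. Some other genes related to antibody were high as well. JCHAIN, the joining chain of secreted polymeric antibody, had 575 ± 3.49 LPM, and MZB1, an endoplasmic reticulum co-chaperone of antibody-making cells, 419 ± 5.24 LPM. VPREB3, a protein related to the surrogate light chain of B-cell precursors, had 374 ± 7.29 and the lambda-like gene IGLL5 154 ± 11.7 LPM.

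The B-cell label was checked against surface genes of the lineage, of which 16 of 18 had a level. Of these, 14 were at or above 1 LPM in both libraries, against 72.4% of all genes. CD79A and CD79B, the signalling chains of the B-cell receptor, stood almost level at 2083 ± 39.9 and 2089 ± 2.6 LPM, at ranks 54 and 53. The Fc-receptor-like gene FCRLA had 1002 ± 13.1 and CD24 571 ± 10.6 LPM. MS4A1, which encodes CD20, the target of rituximab, had 409 and 410.0 LPM (chromosome 11, 60455752 to 60470760). CD37 and the inhibitory co-receptor CD22 had 346 ± 7.55 and 319 ± 6.74 LPM. At the low end were TNFRSF17, the plasma-cell receptor BCMA, at 0.643 ± 0.0905 and CR2, the complement receptor CD21, at 0.0412 ± 0.0298 LPM. The list's median was 227 LPM, against 11.7 over all genes.

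Transcription factors of the B lineage were nearly all transcribed, 19 of 20 at or above 1 LPM in both libraries, against 72.4% of all genes. Their median was 91.6 LPM. The highest was MEF2B, a factor recurrently mutated in germinal-centre lymphomas (chromosome 19, 19145568 to 19170289), at 1218 and 1227 LPM and rank 105. Its relative MEF2C had 0.161 and 0.17 LPM, 819 to 10466 times less depending on which transcript length was used. The readthrough gene BORCS8-MEF2B, which shares exons with MEF2B, had 30.4 ± 0.902 LPM, and reads between them cannot be separated with certainty. POU2AF1, the coactivator OCA-B of octamer-binding factors, had 426 ± 1.35, and the ETS-family factor SPI1 (PU.1) 413 ± 12.2 LPM. With the median transcript POU2AF1 had 857 and MEF2B 509 LPM, so the lead of MEF2B depends on the length chosen. BCL6, the repressor that defines the germinal-centre stage (chromosome 3, 187721377 to 187745727), had 289 and 268 LPM. PAX5, which maintains B-cell identity, had 66 ± 12.4 and EBF1, its upstream partner, 36.6 ± 1.01 LPM. BACH2, which delays plasma-cell differentiation, was among the lowest at 2.52 ± 1.07 LPM.

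Octamer-binding factors recognise the letters ATGCAAAT, a motif known from immunoglobulin promoters, and POU2AF1 works through them, so promoters of highly transcribed genes that hold it are shown. They come from RefSeq windows on GRCh38.p14 that run from 250 bases before to 50 after the start of a gene, at the first listed start. Each line gives 30 bases upstream of the start on the coding strand, with the octamer in capitals, read in either orientation.
HMGA1: tccccgggctcATTTGCATggccccgcccc
MEF2B: tgacgccctgtATGCAAATaagcccgtccc
SERPINA9: aataatatatcATTTGCATgtctagctgga
VPREB3: tcaataggctgATTTGCATgctctgttgtg
ST6GAL1: ttcgcaactctATTTGCATacggaggcgac
They lie at chr6:34236790-34236819 (plus strand), chr19:19170327-19170356 (minus strand), chr14:94476312-94476341 (minus strand), chr22:23754454-23754483 (minus strand) and chr3:186930470-186930499 (plus strand). They are 5 of 8 highly transcribed protein-coding genes picked for an upstream octamer, the other 3 being PRDX5, RPS23 and TOP1. This choice was made after their levels were seen. Not every gene was eligible for the pick, so these need not be the highest genes with the motif. The windows of SERPINA9, VPREB3 and ST6GAL1 overlap the longer gene spans of GENCODE, so they are upstream of the RefSeq start only. HMGA1 encodes a chromatin protein, SERPINA9 a germinal-centre serpin and ST6GAL1 the sialyltransferase that makes the ligand of CD22. Their levels were 1763, 1223, 935, 374 and 359 LPM. The motif stood in 3 of 40 promoters of the B-cell surface, B-cell factor and germinal-centre lists (MEF2B, SERPINA9 and P2RY8) and in 141 of 10524 protein-coding promoters, or 1.34%. It was no more frequent in high genes than in low ones, at 1.4% of promoters of genes under 1 LPM and 1.35% of those at 100 or more. A match shows only that these letters stand in the window.

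Germinal-centre genes had a median of 90.6 LPM. Of 19 with a level, 17 were at or above 1 LPM in both libraries, against 72.4% of all genes. SERPINA9 (chromosome 14, 94462717 to 94479689) had 936 and 934 LPM and rank 143. MARCKSL1, an actin regulator, led the list at 1280.4 ± 2.93, with STMN1, a microtubule regulator, at 724 ± 3.56 and the nucleosome-binding HMGN1 at 459 ± 0.855 LPM. With the median transcript HMGN1 had 837 and MARCKSL1 448 LPM, so this lead depends on the length chosen. GNA13 and P2RY8, whose signals confine B cells to the germinal centre, had 219 ± 7.93 and 205 ± 6.66 LPM, and the signalling regulator RGS13 132 ± 1.41 LPM. The 3 lowest were CXCR4 and CXCR5, chemokine receptors that place B cells in the dark zone and the follicle, at 0.271 ± 0.00657 and 1.46 ± 0.373 LPM, and the signalling regulator RGS1 at 0.375 ± 0.107 LPM.

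The cell-of-origin panel that separates germinal-centre B-cell-like from activated B-cell-like lymphomas had members of both sides. On the germinal-centre side all 6 genes with a level were at or above 1 LPM in both libraries, although ASB13 fell to 0.747 LPM with the median transcript. They were SERPINA9, the neprilysin gene MME (103 ± 4.4 LPM), the inositol kinase ITPKB (68 ± 0.115), the MYB relative MYBL1 (49 ± 0.57), ASB13 (1.97 ± 0.108) and the Notch coactivator MAML3 (1.47 ± 0.00938). Their median was 58.5 LPM. On the activated side 4 of 6 were, a share near the 72.4% of all genes, and the median was 2.62 LPM, with the kinase PIM2 apart at 102 ± 3.23, RAB29 at 6.57 ± 0.649, CYB5R2 at 3.1 ± 0.152, CCDC50 at 2.15 ± 0.0596, CREB3L2 at 0.60 ± 0.0473 and LIMD1 at 0.231 ± 0.116 LPM. IRF4, the factor that marks the activated type, had normalised counts of 0 and 1.29 in the vehicle columns of the MS8815 table, and TNFRSF13B 2.74 and 0.777 in those of the EPZ-6438 table. The panel's reference genes were between 17.3 (TRIM56) and 74.5 LPM (UBXN4), with R3HDM1 at 73.1, ISY1 at 36 and WDR55 at 33.1 LPM. S1PR2 was not analysed here.

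Plasma-cell genes ran from high to near-silent members. Of 10 with a level, 7 were at or above 1 LPM in both libraries, a share near the 72.4% of all genes. Besides JCHAIN and MZB1, the secretory-pathway gene SSR4 had 167 ± 0.728 and the unfolded-protein factor XBP1 46.1 ± 1.6 LPM. PRDM1, the master regulator of the plasma cell, had 0.27 and 0.332 LPM and rank 13251, and BATF 0.384 ± 0.227 LPM. SDC1, which encodes the plasma-cell marker CD138, had 1.41 ± 0.0539 and the ectoenzyme CD38 1.48 ± 0.0036 LPM.

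**Figure D2:**
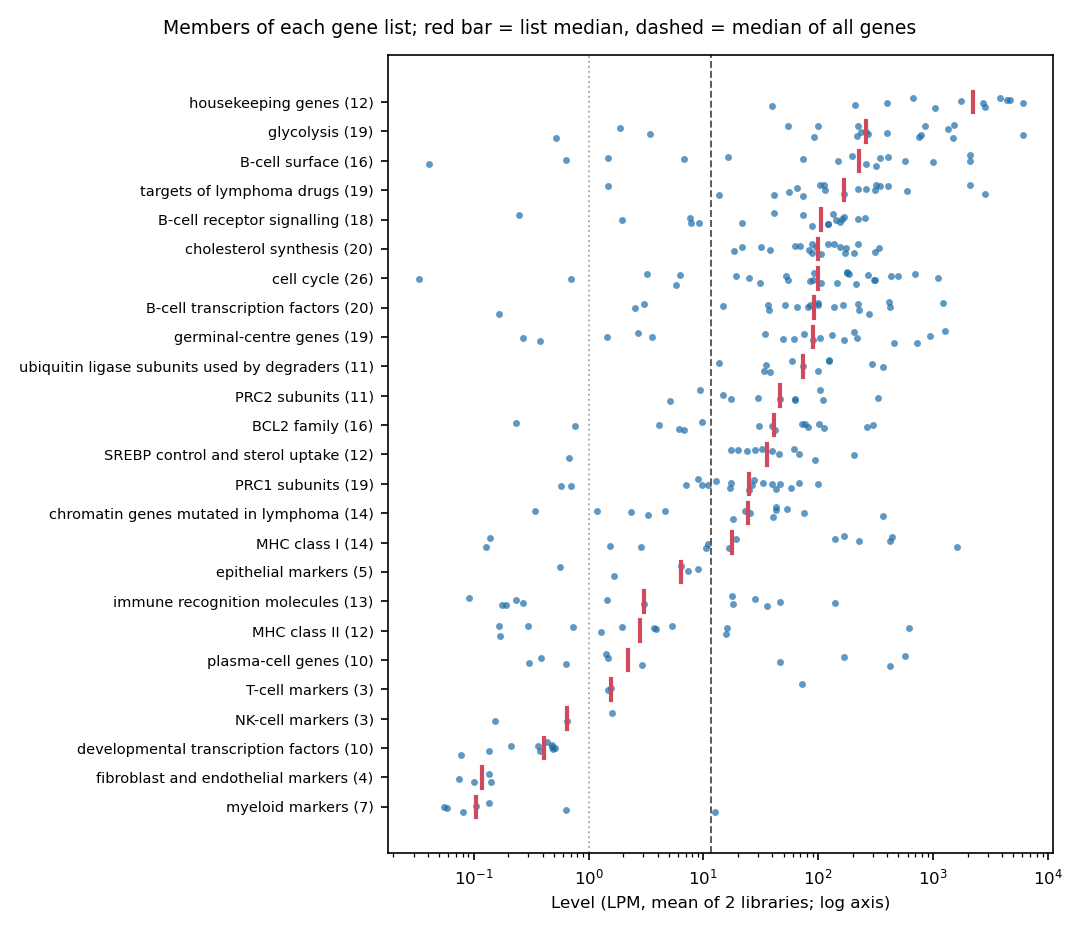
Each point is 1 gene of a list at its mean level in the 2 vehicle libraries (LPM, log axis), each red bar the list median, the dashed line the median of all genes and the dotted line 1 LPM. The number of genes with a level is in brackets. List medians run from 2230.4 LPM for housekeeping genes to 0.105 for myeloid markers.

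B-cell receptor signalling was transcribed unevenly, with 17 of 18 genes at or above 1 LPM, against 72.4% of all genes. The median was 105 LPM. The kinases SYK and BTK had 255 ± 13.5 and 223 ± 1.68 LPM. Among the SRC-family kinases the order was BLK at 168 and 166, LCK at 133 and 134, FYN at 19.8 and 23.8 and LYN at 8.39 and 7.3 LPM in DMSO 1 and DMSO 2. BLK and LCK stood above FYN and LYN in both libraries. LYN is the main SRC-family kinase of normal B cells, and BLK exceeded it 7.01- to 21.4-fold over the transcript lengths tried. LCK, better known from T cells, is also transcribed in several B-cell malignancies. The guanine exchange factor VAV1 had 162 ± 4.25 and the phospholipase PLCG2 154 ± 4.67 LPM. PRKCB, a protein kinase C that acts downstream of the receptor, was the lowest member at 0.305 and 0.187 LPM, while MALT1 and BCL10, which carry the signal to NF-kB, had 9.18 ± 0.649 and 1.96 ± 0.187 LPM. The phosphatase gene PTPN6 (SHP-1), which damps the receptor, had 7.64 ± 0.0064 LPM.

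All 11 PRC2 genes were at or above 1 LPM in both libraries, against 72.4% of all genes. Their median was 46.2 LPM. EZH2 (chromosome 7, 148807383 to 148884321) had 103 and 107 LPM and rank 1876. Its paralog EZH1, the other H3K27 methyltransferase, had 9.32 and 9.42 LPM, and EZH2 exceeded it 3.24- to 13.6-fold over the transcript lengths tried. Of the core partners, SUZ12 had 63 ± 0.166 and EED, which reads the H3K27 mark, 14.9 ± 0.311 LPM. EED was below EZH2 and SUZ12 in both libraries and under each length. The histone chaperones RBBP7 and RBBP4, which also serve other complexes, were the highest at 333 ± 0.65 and 109.8 ± 2.17 LPM. Accessory subunits ranged from PHF19 at 63.3 ± 2.77 and MTF2 at 46.2 ± 0.25 to JARID2 at 5.14 ± 0.359 LPM.

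PRC1, which reads and reinforces the PRC2 mark, had 17 of 19 genes at or above 1 LPM, against 72.4% of all genes. Its median was 24.8 LPM. Its E3 ligase RING1 had 100.4 ± 0.236 and the paralog RNF2 33.1 ± 2.32 LPM, with RING1 higher by 1.17- to 3.3-fold over the lengths tried. Among the chromodomain subunits CBX7 was lowest at 0.705 ± 0.205 LPM. PHC2 and KDM2B had 57.6 ± 1.8 and 47 ± 2.3 LPM, and PCGF2 (MEL18) 0.579 ± 0.346 LPM against 27.9 ± 0.724 for its relative BMI1. On a list of chromatin genes studied in lymphoma, the maintenance DNA methyltransferase DNMT1 stood apart at 370.2 ± 18.8 LPM. ARID1A had 75.6 ± 6.44, EP300 53.2 ± 8.44, the H3K4 methyltransferase KMT2D 42.9 ± 4.02 and CREBBP 40.4 ± 0.726 LPM. With the median transcript EP300 had 363 and KMT2D 467 LPM, so no order is read among these genes. KDM6A, a demethylase that removes the PRC2 mark, was at 0.44 and 0.251 LPM, whereas its relative KDM6B was at 25.6 ± 3.17. The de novo methyltransferase DNMT3A had 1.64 and 0.726 LPM, and DNMT1 exceeded it by 219- to 363-fold over the lengths tried and by 233- and 492-fold in DMSO 1 and DMSO 2.

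Developmental transcription factors, which PRC2 keeps silent in most lineages, were under 1 LPM wherever they had a level. Of these 10 of 20, GATA6 had 0.511 ± 0.0926, HOXB9 0.494 ± 0.175, KLF4 0.486 ± 0.163, PAX6 0.484 ± 0.00378, HOXC10 0.137 ± 0.0627 and GATA4 0.0779 ± 0.0409 LPM. Their median was 0.409 LPM, against 11.7 over all genes, of which 72.4% were at or above 1 LPM in both libraries. The part of PRC2 in these low levels was not tested. Of the remaining 10 members, SOX2, PAX2, LHX2, OLIG2, TWIST1 and WT1 had normalised counts from 0 to 2.59 in the vehicle columns of the MS8815 table.

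The cholesterol synthesis pathway was transcribed throughout. Every one of its 20 genes was at or above 10 LPM in both libraries, against 51.4% of all genes, with a median of 101 LPM. FDFT1, which makes squalene, and FDPS, which makes farnesyl diphosphate, led at 336 ± 0.904 and 309.9 ± 6.47 LPM. HMGCS1, which makes HMG-CoA, had 219.8 and 222 LPM in DMSO 1 and DMSO 2. The isomerase IDI1 had 206 and 202 and the squalene epoxidase SQLE 173 and 174 LPM. With the median transcript HMGCS1 had 383 and FDFT1 207 LPM, so the order of these genes depends on the length chosen. The lowest were the mevalonate kinase MVK at 18.3 ± 1.65 and HSD17B7 at 21.9 ± 1.13 LPM. SREBF2, whose product SREBP2 drives this pathway (chromosome 22, 41833079 to 41907308), had 208 and 206 LPM and rank 877. Its paralog SREBF1, which favours fatty acid synthesis, had 45.5 and 46.4 LPM, lower by 4.5- to 5.86-fold over the lengths tried. Among the regulators, INSIG1 had 93.2 ± 3.37, NPC2 68.7 ± 1.81, the site-1 protease MBTPS1 61.8 ± 3.86 and the cargo escort SCAP 40 ± 3.22 LPM.

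**Figure D3:**
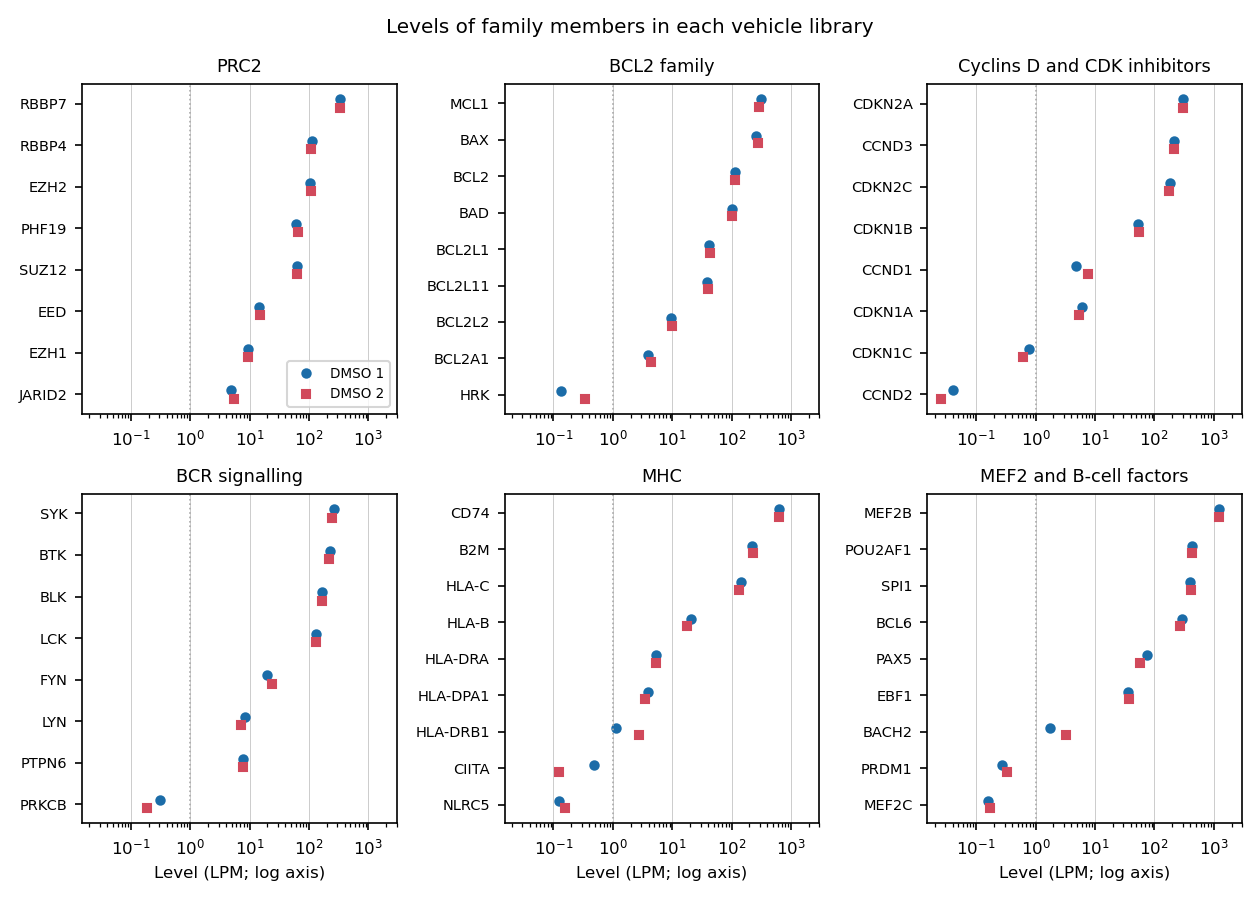
Levels of family members in DMSO 1 (circles) and DMSO 2 (squares), LPM on log axes, with a dotted line at 1 LPM. EZH2 lies above EZH1, MEF2B above MEF2C and CCND3 above CCND1 and CCND2 in both libraries.

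Survival genes of the BCL2 family were led by MCL1 at 299 ± 15.3 LPM, and the pro-apoptotic effector BAX had 265 ± 13.6 LPM. With the median transcript MCL1 had 174 LPM, while BAX moved by no more than 1.5-fold, so no order is read between them. BCL2, the target of venetoclax and the gene joined to the immunoglobulin locus in many germinal-centre lymphomas (chromosome 18, 63123346 to 63320128), had 114 and 113 LPM. BCL2L1 (BCL-XL) had 42 ± 1.3 and BCL2A1, a target of NF-kB, 4.14 ± 0.253 LPM. BCL2 was above both in each library, by 1.72- to 2.71-fold over BCL2L1 across the lengths tried. Of the BH3-only sensors, BAD had 102 ± 0.262, BID 81.4 ± 3.7, PMAIP1 (NOXA) 77.2 ± 2.89, BCL2L11 (BIM) 39.8 ± 1.29 and HRK 0.234 ± 0.14 LPM. BOK had 0.758 ± 0.178 LPM.

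Of the cell-cycle genes 21 of 26 were at or above 10 LPM in both libraries, against 51.4% of all genes, with a median of 99.4 LPM. The replication clamp PCNA had 1113 ± 0.896, the MYB relative MYBL2 698 ± 0.125, CDK1 491 ± 12.3 and CDK4 432 ± 2.3 LPM. Of the D-type cyclins, which start the cycle with CDK4 and CDK6, CCND3 carried nearly the whole signal at 212 and 216 LPM. CCND1 had 4.79 and 7.75 and CCND2 0.0402 and 0.0259 LPM. The libraries differed by over 1.5-fold for CCND1 and CCND2, but each stayed below CCND3 in both. Among the inhibitors CDKN2A, which encodes p16INK4A and p14ARF, was the highest at 307 and 309 LPM. CDKN2C had 179.7 ± 2.49, CDKN1B 54.1 ± 0.412 and CDKN1A (p21) 5.81 ± 0.461 LPM. With the union of its exons as length CDKN2A had 127 LPM. Its mean normalised count was 4714, against 6228 for CDKN2C, so no order is read between CDKN2A and CDKN2C. CDKN1C had 0.705 ± 0.113 LPM. RB1, which those inhibitors act through, had 91.9 ± 5.5 LPM. MYC had 292 and 280.1 LPM and rank 604, its dimer partner MAX 86.6 ± 6.5, the network members MLX 54.6 ± 1.92 and MXD3 52.1 ± 1.06, and MYCL 0.144 ± 0.0684 LPM.

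In the MHC class II list 8 of 12 genes were at or above 1 LPM, a share near the 72.4% of all genes. At or above 10 LPM were 3, against 51.4% of all genes, and the median was 2.83 LPM. CD74, the invariant chain that chaperones class II molecules, had 616 and 627 LPM and rank 220. HLA-DRA, the alpha chain of the main class II molecule (chromosome 6, 32439842 to 32445046), had 5.3 and 5.39 LPM and rank 9151. CD74 thus exceeded HLA-DRA 63- to 243-fold over the lengths tried, although both are usually abundant in B cells. CIITA, the transactivator of class II genes, had 0.473 and 0.125, HLA-DPA1 3.9 and 3.5, HLA-DRB1 1.13 and 2.81 and HLA-DQA1 0.154 and 0.18 LPM. The libraries differed by over 2-fold for CIITA and HLA-DRB1. HLA-DOB and HLA-DMA, which act on peptide loading, had 16 ± 1.48 and 15.9 ± 0.0268 LPM. HLA-DQB1 had normalised counts of 2.0 and 0.696 in the vehicle columns of the MS8815 table.

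Class I genes were transcribed in part. HLA-C had 146 and 135 and HLA-B 20.4 and 17.9 LPM, the same order in both libraries. B2M, the shared light chain, had 224 and 232 LPM and rank 788. NLRC5, the transactivator of class I genes, had 0.139 ± 0.0251, the transporter subunits TAP1 and TAP2 2.87 ± 0.631 and 16.7 ± 2.81, and the immunoproteasome subunits PSMB8 and PSMB9 10.9 ± 1.27 and 1.53 ± 0.18 LPM. CALR and PDIA3, general chaperones of the endoplasmic reticulum that also load class I, had 1626 ± 1.24 and 439 ± 8.14 LPM, TAPBP 167 ± 5.58 and HLA-F 0.127 ± 0.011. HLA genes are polymorphic, so reads of alleles unlike the reference may have been lost or placed on a relative. Molecules that T cells and NK cells read were also uneven. CD83 had 139.9 ± 1.82 and the costimulatory ligand CD86 46.4 ± 1.05 LPM, CD47 35.7 ± 1.19 and the adhesion ligand CD48 28.1 ± 1.08 LPM. The NK-cell and T-cell ligand CD58 had 3.05 ± 0.266, the death receptor FAS 1.45 ± 0.169, TNFRSF14 (HVEM), often mutated in germinal-centre lymphomas, 0.193 ± 0.182, and the checkpoint ligands CD274 (PD-L1) and PDCD1LG2 (PD-L2) 0.176 ± 0.0123 and 0.0907 ± 0.0278 LPM.

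All 19 genes of the target list were at or above 1 LPM in both libraries and 18 at or above 10, against 72.4% and 51.4% of all genes, with a median of 168 LPM. TUBB, the beta-tubulin that vincristine binds, led at 2815 LPM, followed by CD79B, the histone deacetylase HDAC1 at 589 ± 8.72 and MS4A1. With the median transcript TUBB had 1042 and CD79B 1079 LPM, so their order depends on the length chosen. XPO1, the nuclear exporter, had 168 ± 0.708 and the glucocorticoid receptor NR3C1 65 ± 0.521 LPM. CRBN, the receptor of lenalidomide, was low within this list at 13.7 ± 0.476 LPM, next to last before CD38. The median of all genes was 11.7 LPM, and with the median transcript CRBN had 30.9 LPM. Of the ligase subunits that degraders can use, all 11 were at or above 10 LPM, against 51.4% of all genes. VHL had 38.3 ± 1.04 and its scaffold CUL2 73.8 ± 1.21 LPM, the elongins TCEB2 and TCEB1 368 ± 13.2 and 99.9 ± 3.01, RBX1 123 ± 6.89, DDB1 292 ± 9.77, CUL4B 125 ± 1.34 and XIAP 34 ± 3.19 LPM.

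Glycolysis genes had a median of 261 LPM, with 13 of 19 at or above 100 LPM in both libraries, against 12.4% of all genes. After GAPDH came ENO1 at 1519 ± 12, TPI1 at 1492 ± 29.2 and LDHA at 1349 ± 9.89 LPM. The ubiquitous glucose transporter SLC2A1 had 91.9 ± 0.862 and SLC2A3 0.521 ± 0.239 LPM, while the neuronal enolase ENO2 had 1.9 ± 0.0311. All 12 housekeeping genes were at or above 10 LPM, against 51.4% of all genes. ACTB, the beta-actin often used as a reference, was the second lowest at 197 and 219 LPM and rank 873. ACTG1 exceeded it by 9.71- to 26.8-fold over the lengths tried, and the lowest was TBP at 39.4 ± 3.48 LPM. The coding sequences of the actin genes are very alike, so the split of their reads is uncertain.

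Markers of cell types that a B-cell line should not hold were sparse. Of 51 such markers 24 had a level, and 9 were at or above 1 LPM in both libraries (37.5%), against 72.4% of all genes and 33 of 36 on the B-cell surface and factor lists. Among 7 myeloid markers LYZ alone passed, at 12.6 ± 2.1 LPM, with MPO and ITGAM at 0.0584 ± 0.0664 and 0.0551 ± 0.067. The 4 fibroblast and endothelial markers with a level summed to 0.315 to 0.588 LPM over the 2 libraries. The red-cell and platelet markers HBB and ITGA2B had 0.203 ± 0.00477 and 0.0369 ± 0.0522 LPM. All 3 T-cell markers with a level, of 11 listed, were at or above 1 LPM in both libraries. TRAC, the constant gene of the T-cell receptor alpha chain, had 70.1 and 73.9 LPM, while CD3G and CD3E had 1.57 ± 0.586 and 1.48 ± 0.127. NK-cell markers were at 1.6 ± 0.223 (PRF1) LPM or less, with NKG7 at 0.645 ± 0.0933 and NCAM1 at 0.155 ± 0.0562. Of the epithelial markers 4 of 5 were at or above 1 LPM in both libraries. KRT8 had 9.3 and 8.82, KRT19 7.55 and 7.01, KRT18 6.81 and 6.09 and CLDN4 1.72 and 1.62 LPM, whereas EPCAM had 0.697 and 0.423. The summed level of the epithelial list was 24 to 26.1 LPM over the 2 libraries, against 7498 to 7548 for B-cell surface genes. In bulk RNA a few cells of another type and a low level in every cell cannot be told apart, and the source of the keratin, TRAC and LYZ reads was not tested.

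Promoter composition moved with level. Of the protein-coding genes, 10524 had a RefSeq promoter window. The ETS letters CCGGAAGT, on either strand, stood in 2.08% of promoters of genes under 1 LPM, 5.79% at 1 to 10, 11.6% at 10 to 100 and 12.1% at 100 or more. Over the 10524 promoters the share was 8.58%, and over all 35116 windows of the RefSeq table, not limited to these genes, 4.14%. The median ratio of observed to expected CpG rose along the same classes from 0.714 to 0.882, while the median GC content stayed between 64.3 and 65.7%. TATAAA went the other way from 8.38% to 4.33% and 5.57% in the top class, and the E-box CACGTG rose from 7.75% to 12.1%. CCAAT rose from 32.2% to 41.4%. The cAMP-response letters TGACGTCA stood in 1.54% and 3.33% of the lowest and highest classes. These classes differ in CpG content, a dinucleotide that the ETS, E-box and cAMP-response letters hold, and its part in the shares was not tested. Not every gene was eligible for display here either, so the genes shown need not be the highest with the ETS letters. Those shown were picked in descending order of level with these letters upstream of the start, and all are ribosomal protein genes. That class is itself high, at a median of 1106 LPM, and the share of its promoters with these letters was not taken. Each gene picked is shown as 30 bases on the coding strand with the motif in capitals.
RPS18: agaaaggcgcaCCGGAAGTtgtggtaccca
RPS6: attaatctcgcCCGGAAGTaccgcccaccc
RPL19: ACTTCCGGttacagataaccacgtgattgg
RPLP2: taagagcagtcACTTCCGGaactgctgccc
They lie at chr6:33271927-33271956 (plus strand), chr9:19380322-19380351 (minus strand), chr17:39200033-39200062 (plus strand) and chr11:809747-809776 (plus strand), where the window of RPLP2 also overlaps its GENCODE span, and the genes had 3504, 3015, 2242 and 2139 LPM.

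**Figure D4:**
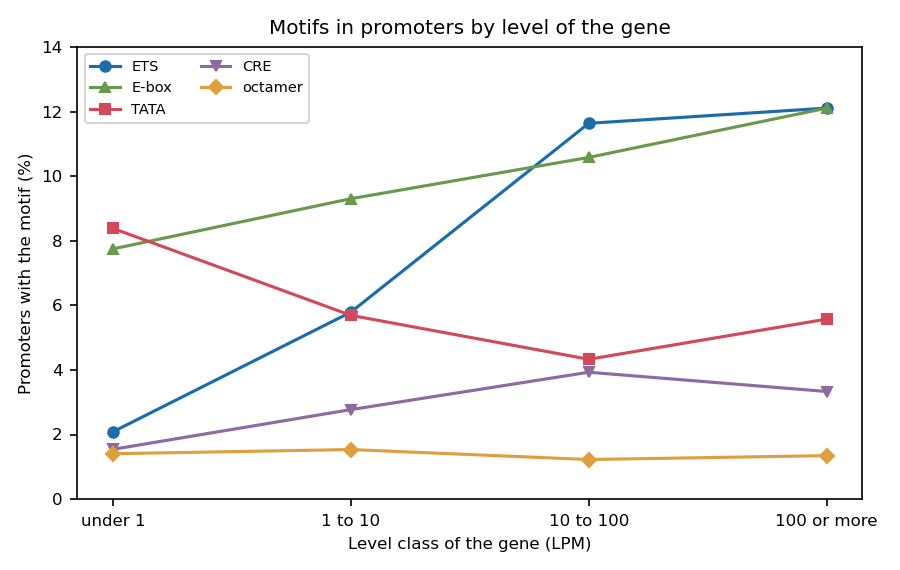
Percent of protein-coding promoters that hold each motif (y axis) by level class of the gene (x axis, LPM). The ETS letters rise from 2.08% to 12.1%, and the octamer stays between 1.22% and 1.53%.

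How well a level was known depended on the reads behind it. The median absolute log2 difference between the vehicle libraries was 0.14 over all genes, on log2(normalised count + 1). It was 0.71 for genes under 10 normalised counts, 0.38 from 10 to 100, 0.12 from 100 to 1000 and 0.05 from 1000 to 10000. The levels of near-silent genes rest on few reads, with normalised counts of 3.13 and 1.02 for CR2, 3.09 and 2.02 for CCND2 and 1.98 and 4.38 for GATA4. Of 10402 genes with a mean of 100 or more, 38 differed 2-fold or more.

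The largest gaps were in genes with near-identical copies. IGKV2-30 had normalised counts of 231 and 0 in DMSO 1 and DMSO 2, and its inverted copy IGKV2D-30 had 0 and 202. Their sums were close, at 231 and 202. HIST2H2AA3 had 104 and 0 and its twin HIST2H2AA4 78.7 and 175, with sums of 183 and 175. The same swap was seen in MIR3180-1 at 0 and 20.2 and MIR3180-3 at 17.5 and 0. The U1 snRNA variant RNVU1-18 had 0 and 258. Gaps also occurred in genes without so close a copy, named here after their values were seen. The GTPase gene RAB12 had normalised counts of 30.1 and 422, the malic enzyme ME2 226 and 604, the taurine transporter SLC6A6 1876 and 892, the ubiquitin ligase ITCH 864 and 414 and the DNA methylation reader UHRF1 5123 and 3195.

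**Figure D5:**
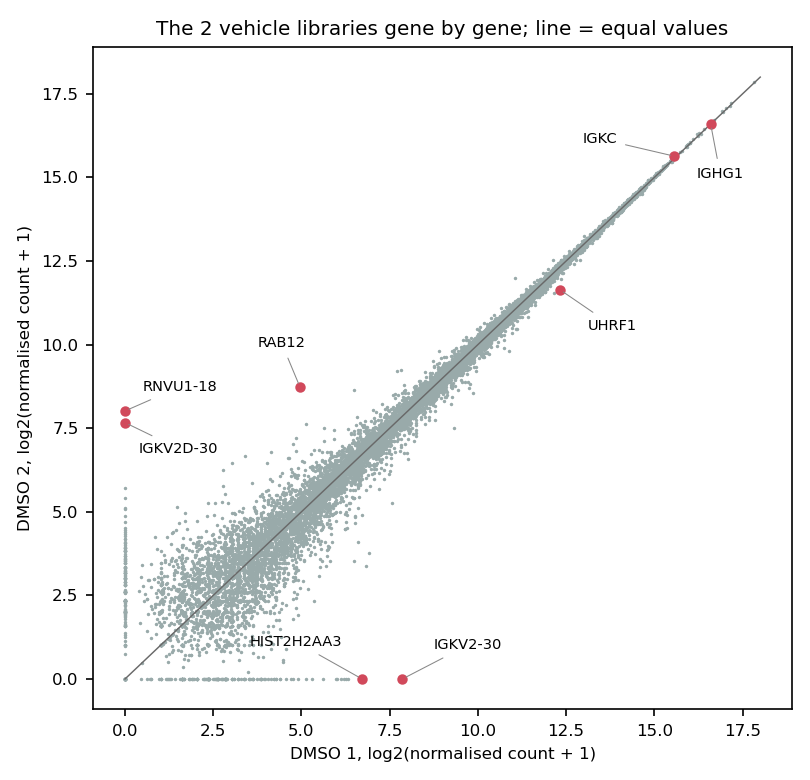
Each point is 1 gene, with log2(normalised count + 1) in DMSO 1 on the x axis and in DMSO 2 on the y axis. The line marks equal values. IGKV2-30 and IGKV2D-30 lie on opposite axes, and the spread narrows as counts rise.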

How the data were processed

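Total RNA was made into sequencing libraries with 1 of 2 kits, per the labels' protocols, and the kit of each library is not given. STAR 2.4.2, Salmon and GRCh38 are named in the submitters' processing notes. The authors deposited 3 tables of log2 values from the variance-stabilising transform of DESeq2, as the deposited names record, one per compound and each with the same vehicle libraries, transformed separately. No raw counts were used.

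The transform was inverted to normalised counts with the lowest value of the table as the value of 0 reads. Gene lengths came from GENCODE release 29 (longest transcript), by symbol for 15159 genes and by RefSeq synonym for 294. The other 2945 genes, 1.02% of the normalised counts, had no length and no level, and 52 symbols stand for more than 1 annotated gene. Which gene models the authors counted is not given in the sources used here. Depth was estimated from steps between low values, which put 45.8% and 42.6% of values under 20 within 0.02 of a whole multiple of 1 read, so it is approximate. The inversion was tested on simulated data of 15453 genes with 200 raised. Python 3.11.15, numpy 2.4.6, pandas 2.3.3 and matplotlib 3.10.9 were used.

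No test was made, since 1 group is described. The members and the 33 gene lists were chosen with earlier results of these data known. Named genes were the 12 highest protein-coding genes outside the ribosomal and mitochondrial classes, the 3 highest of each of those, the 6 highest long non-coding RNA genes, the 4 highest and 2 lowest of each list, the cell-of-origin panel, a set of lymphoma and EZH2 pathway genes, and the 6 genes with the largest gap between libraries. Other genes were named after their values were seen, and some genes under these rules are not reported here. Alternatives changed the transcript length, table, threshold, filter, pseudocount and library.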

Additional observations from a re-analysis of the deposited data

How the results depend on the processing

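The number of genes at or above 1 LPM in both vehicle libraries ran from 10337 to 12105 over the alternatives tried, the extremes being thresholds of 2 and 0.5 LPM, and from 11473 to 11476 with 1 library left out. B-cell surface and factor genes at or above the threshold numbered 31 to 34. The share of the 100 highest genes was 28.2% with union exons, 18.9% with the median transcript, 17.1% without a length and 24.7% with mitochondrially encoded genes left out of the sum. With 1 library left out it was 26.5 to 26.9%. Markers of other cell types at or above the threshold numbered 5 at 2 LPM and 6 with the median transcript, against 9. The median absolute log2 difference between libraries was 0.0945 among genes with 10 or more normalised counts in both. Of 209 named genes, 146 moved over 1.5-fold with the median transcript and 16 with union exons, so levels depend strongly on the gene model. Leaving out DMSO 1 or DMSO 2 moved 19 and 22 of them over 1.5-fold. With the vehicle values of the MS8815 and EPZ-6438 tables, 4 of 207 and 3 of 206 moved as far. No paired analysis was possible because only 1 group is described and no groups were compared.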

Other observations

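Cytokine genes and their receptors were transcribed selectively. IL2RG, the common gamma chain, had 218 ± 0.113 LPM and the IL-21 receptor gene IL21R 57.9 ± 0.127 LPM. The lymphotoxin genes LTB and LTA, which organise lymphoid tissue, had 187 ± 9.47 and 107 ± 5.38, TNF 103 ± 4.68 and IL6 0.471 ± 0.295 LPM. CCR7, which guides lymphocytes to T-cell zones, had normalised counts of 1.4 and 0 in the vehicle columns of the MS8815 table. The telomerase reverse transcriptase TERT had 6.26 ± 1.72 LPM, its RNA template TERC 0.548 ± 0.775 and the cancer-testis gene PRAME 0.402 ± 0.299 LPM.

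Of the long non-coding RNA genes the highest were the snoRNA hosts SNHG6 at 370.0 ± 23.8 and SNHG5 at 271 ± 12.4 LPM and DANCR at 308 ± 12.1 LPM. AC024560.3, PCED1B-AS1 and PCBP1-AS1 followed at 213 ± 12.5, 169.8 ± 4.01 and 148 ± 2.2 LPM, the antisense genes being uncertain where strand was not counted. The median level of protein-coding genes was highest on chromosomes 22 (21.1 LPM), X (21.1) and 20 (20.7), and lowest on chromosomes 15 (11.5), 19 (12.2) and 18 (12.4).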
